A study of Mus musculus with 12 samples.

Results

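Prolyl hydroxylation and chaperoned folding are the steps that turn newly made procollagen chains into a stable triple helix. Of the 47069 genes counted in mouse tibia, 9 genes of these steps were taken by their symbols, P4ha1, P4ha2, P4ha3, P4hb, Crtap, Ppib, Serpinh1, Fkbp10 and Tmem38b, and all 9 passed the filter on low counts in each comparison. The samples were tibia shafts with the marrow flushed out, from 12 male mice aged 8 weeks, with 4 mice in each of 3 groups. Jrt;Sost-ko mice carried the Jrt allele of Col1a1 on one chromosome and lacked Sost on both (Col1a1Jrt/+ Sost-/-). The controls, Jrt;Sost-het mice, are labelled by the Jrt allele alone (Col1a1Jrt/+), and their heterozygous Sost deletion is known from the study's breeding scheme, so that both Jrt groups carried at least 1 deleted copy of Sost. WT mice carried neither allele. Jrt is a splicing allele of Col1a1 that shortens the helix of the alpha 1 chain of collagen type I, and heterozygous mice serve as a model of severe dominant osteogenesis imperfecta (OI). The Jrt mice descended from a cross of FVB Col1a1Jrt/+ with C57BL6 Sost-/- mice and from a recombination on chromosome 11 that brought both alleles together, whereas WT mice came from a separate colony of mixed FVB/C57BL6 background, so that colony and genotype cannot be told apart in comparisons with WT.

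Collagen chains are modified in the endoplasmic reticulum before they leave the cell. Prolyl 4-hydroxylase, made of catalytic alpha subunits (P4ha1, P4ha2 or P4ha3) and of protein disulfide isomerase (P4hb), hydroxylates prolines throughout the helix and thereby keeps it stable at body temperature. Crtap forms with P3h1 and cyclophilin B, the product of Ppib, a complex that hydroxylates single prolines in the 3 position and eases folding. Serpinh1 encodes HSP47, a chaperone that binds the folded procollagen helix, Fkbp10 encodes FKBP65, a prolyl isomerase that also aids lysine hydroxylation at the chain ends, and Tmem38b encodes the cation channel TRIC-B of the endoplasmic reticulum membrane. Loss of CRTAP, PPIB, SERPINH1, FKBP10 or TMEM38B causes recessive forms of OI in people.

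The counts on genes came to between 24366061 and 44418863 per mouse. Sost, which encodes sclerostin, had between 26.8 and 72.3 CPM (counts scaled to a common library total) in the 8 mice of the WT and Jrt;Sost-het groups and between 0.326 and 1.28 in the Jrt;Sost-ko mice. All 12 osteoblast markers were detected in every mouse, and their summed level lay between 23183 and 70767 CPM. Transcripts of other tissues varied widely. The sum of 16 skeletal muscle genes ran from 35.7 to 32758 CPM, that of 10 epidermal genes from 2.84 to 596 CPM in WT mice, against at most 6.66 CPM in the Jrt mice, and that of 10 neutrophil genes from 17152 to 31975 CPM. The sum of 9 chondrocyte genes was highest in Jrt;Sost-het mouse 1 (3205 CPM) and WT mouse 4 (2459 CPM), which were also the highest mice of their groups for Serpinh1, Fkbp10 and P4ha1, and lay between 87.7 and 798 CPM in the other 10. The part of these cells in the levels was not tested. In RNA of whole bone, fewer cells of a type and less RNA per cell cannot be told apart.

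The 9 genes lie on 5 chromosomes (positions in GRCm38, GENCODE M21). On chromosome 11, Fkbp10 (chr11:100415697-100424824, plus strand) sits between the loci of the study, 5.46 Mb beyond the end of Col1a1 and 1.54 Mb before the start of Sost, with P4ha2 (chr11:54100095-54131665, plus) and P4hb (chr11:120560298-120573253, minus) on either side of that interval. On chromosome 7, Serpinh1 (chr7:99345376-99353239, minus) and P4ha3 (chr7:100285520-100319699, plus) are 0.932 Mb apart. Crtap (chr9:114375134-114390675, minus) and Ppib (chr9:66060222-66066623, plus) share chromosome 9, P4ha1 is on chromosome 10 (chr10:59323296-59373304, plus) and Tmem38b on chromosome 4 (chr4:53826045-53862019, plus). All 9 are protein-coding. Crtap, Ppib and Fkbp10 overlap genes of the opposite strand (4930520O04Rik, Snx22 and Nt5c3b), from which their reads could not be told apart if strand was ignored in counting, and Tmem38b contains the rRNA gene n-R5s185.

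The promoters of 4 of these genes are printed here because the levels of P4ha1, P4ha2 and Serpinh1 followed those of collagen from mouse to mouse, while Ppib, whose product works in the same compartment, stayed almost level. Each runs from 250 bases before to 50 bases after the start site in RefSeq (GRCm38.p6), 5′ to 3′ on the strand of the gene. Capitals mark ACGTG on either strand, a core shared by sites of hypoxia-inducible and unfolded protein response factors.
P4ha1 (chr10:59323046-59323345, plus): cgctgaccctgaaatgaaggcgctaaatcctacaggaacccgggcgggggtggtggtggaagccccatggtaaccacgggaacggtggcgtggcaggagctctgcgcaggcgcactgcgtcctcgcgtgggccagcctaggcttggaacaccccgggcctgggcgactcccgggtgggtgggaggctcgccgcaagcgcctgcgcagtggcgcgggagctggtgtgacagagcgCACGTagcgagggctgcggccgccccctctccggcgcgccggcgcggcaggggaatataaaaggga
P4ha2 (chr11:54100674-54100973, plus): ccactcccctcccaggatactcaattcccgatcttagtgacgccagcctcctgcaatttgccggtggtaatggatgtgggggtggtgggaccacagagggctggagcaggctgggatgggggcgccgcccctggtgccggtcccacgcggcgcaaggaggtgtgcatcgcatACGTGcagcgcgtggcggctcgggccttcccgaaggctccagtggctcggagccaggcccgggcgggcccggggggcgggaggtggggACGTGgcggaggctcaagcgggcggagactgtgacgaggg
Serpinh1 (chr7:99353190-99353489, minus): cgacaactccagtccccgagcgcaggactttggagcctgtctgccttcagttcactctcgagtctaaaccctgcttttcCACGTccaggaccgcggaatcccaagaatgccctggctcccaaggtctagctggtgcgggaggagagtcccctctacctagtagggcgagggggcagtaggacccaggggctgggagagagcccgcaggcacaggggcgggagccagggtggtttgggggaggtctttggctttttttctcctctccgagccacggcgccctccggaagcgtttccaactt
Ppib (chr9:66059919-66060218, plus): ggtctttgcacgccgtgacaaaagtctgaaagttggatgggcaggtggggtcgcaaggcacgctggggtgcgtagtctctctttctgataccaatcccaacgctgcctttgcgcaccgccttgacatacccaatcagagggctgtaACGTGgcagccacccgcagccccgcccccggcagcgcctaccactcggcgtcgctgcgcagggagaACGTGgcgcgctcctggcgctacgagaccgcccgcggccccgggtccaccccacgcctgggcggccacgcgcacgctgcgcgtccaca

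Of the 9 genes, 7 had a promoter in the RefSeq table, and Fkbp10 and Tmem38b had none. ACGTG was found once in the windows of P4ha1 and Serpinh1, at 2 places in those of P4ha2, P4hb and Ppib, and not in those of P4ha3 and Crtap. The same letters occur in 19.6% of the 32851 promoters of that length in the table. The 7 windows held between 58.3% (Crtap) and 70.3% (P4ha1 and P4ha2) G and C. Promoters were not matched for this content, so the shares cannot show an enrichment. The full endoplasmic reticulum stress element, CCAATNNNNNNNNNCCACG on either strand, was in 0 of the 7 windows and in 0.119% of all. Its parts overlap other matches (CCACG shares letters with ACGTG on the opposite strand) and are common, CCAAT in 37.4% and CCACG in 32.8% of promoters. Ppib held CCAAT at 2 places and P4hb at 1, and no other of the 7 windows held it. These are matches of letters only.

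Levels of the genes were compared per length, as CPM per kilobase of exon, over the 12 mice. The length was the union of exons of all annotated transcripts. A gene expressed mainly as a shorter transcript therefore stands too low, and the order holds for this measure only. Serpinh1 stood highest (242 ± 73.3, SD, n = 12), followed by P4hb (174 ± 16.2), Ppib (58.7 ± 2.62), Fkbp10 (38.0 ± 10.7), Crtap (36.6 ± 6.95), P4ha1 (19.6 ± 5.51), Tmem38b (9.22 ± 0.942), P4ha2 (5.51 ± 1.87) and P4ha3 (2.03 ± 0.898). Fkbp10 and Crtap did not differ beyond their spread, since Fkbp10 was the higher in 7 of 12 mice. Serpinh1 exceeded P4hb in 10 mice, Tmem38b exceeded P4ha2 in 11, and every other neighbour in the order kept its place in all 12. The counts behind these levels ran from 76 for P4ha3 to 30247 for Serpinh1 in a mouse.

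**Figure D1:**
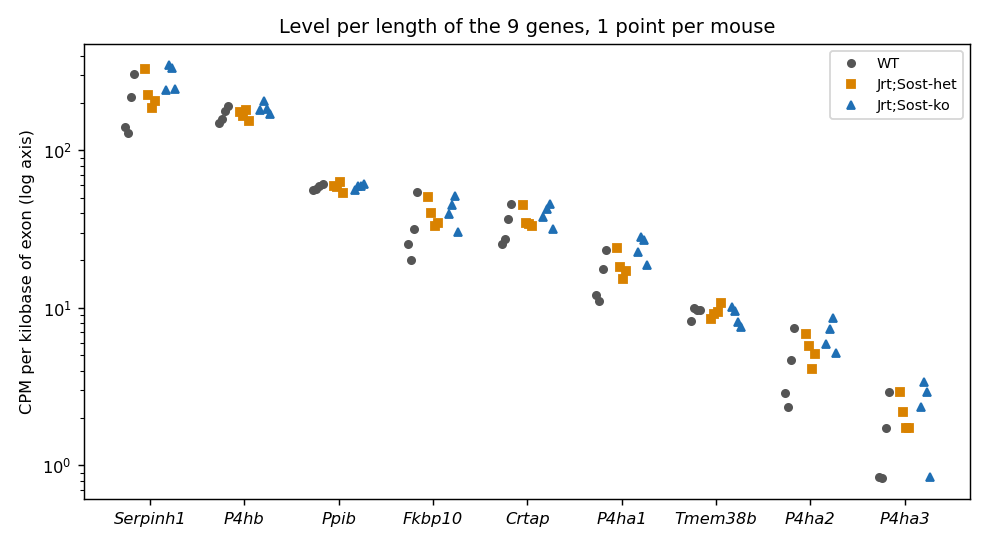
Level of each gene in CPM per kilobase of exon (log axis), with 1 point per mouse and the groups set side by side (circles WT, squares Jrt;Sost-het, triangles Jrt;Sost-ko). Serpinh1 and P4hb stand above 100 in every mouse, and the points of Ppib, P4hb and Tmem38b lie closer together than those of the other genes.

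Among the catalytic subunits of prolyl 4-hydroxylase, P4ha1 made up most of the transcripts. Its share of the sum of the 3 alpha subunits, per length, was 72.7% ± 2.67 (SD, n = 12 mice), that of P4ha2 20.04% ± 1.76 and that of P4ha3 7.23% ± 1.62. These shares depend on the exon lengths, 6239 bases over 15 transcripts for P4ha2 and 4114 over 3 for P4ha1. By CPM without length, P4ha2 had a median of 41.4% of P4ha1. By group, the share of P4ha1 was 74.1% ± 3.74 for WT, 71.2% ± 1.01 for Jrt;Sost-het and 72.8% ± 2.34 for Jrt;Sost-ko (n = 4 each). The share of P4ha3 ran from 5.36% to 8.65% in WT, from 7.18% to 8.61% in Jrt;Sost-het and from 3.41% to 8.71% in Jrt;Sost-ko mice. The ranges overlapped, and the shares were not tested between groups. P4hb exceeded the sum of the alpha subunits in every mouse, by between 4.79 and 11.2 times. P4hb also serves as a disulfide isomerase outside this enzyme, and its ratio to the alpha sum had a mean of 8.42 ± 2.39 for WT, 6.62 ± 1.45 for Jrt;Sost-het and 5.69 ± 0.891 for Jrt;Sost-ko (n = 4 each). As the log2 ratio of P4hb to P4ha1, the groups overlapped, and the difference of Jrt;Sost-ko from WT (-0.51) had p = 0.0571 in an exact two-sided permutation test and an adjusted p of 0.371 over 39 ratio tests.

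To see how the collagen folding genes differed with both copies of Sost deleted on the Jrt background, Jrt;Sost-ko mice were compared with Jrt;Sost-het mice. The deleted Sost allele came from C57BL6 mice and the Jrt allele from FVB mice. Loss of Sost and strain alleles linked to it on chromosome 11 therefore cannot be told apart in this comparison. None of the 9 genes was called by edgeR's quasi-likelihood test at a Benjamini-Hochberg adjusted p under 0.05, or had an unadjusted p under that value. The smallest adjusted p among them was 0.901, and DESeq2 and limma-voom called 0 of them as well. Across all 16739 genes tested 0.00597% were called, which is the single gene Sost, and 5.02% had an unadjusted p under 0.05. None of the 9 separated the groups without overlap, against 3.2% of all genes, and 8 of 9 had a mean log2 fold change above 0, against 50.4% of all genes. The median log2 fold change was 0.13 over the 9 genes and 0.00 over all genes. Several of the 9 genes moved together from mouse to mouse, so that their directions are not independent of each other. The summed osteoblast markers, which include Col1a1 and Col1a2, had medians of 42596 CPM in Jrt;Sost-het and 59639 CPM in Jrt;Sost-ko mice. Their median was 34762 CPM in WT mice, and the ranges of the groups overlapped. The part of osteoblasts in these directions was not tested.

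Among the alpha subunits, P4ha1 had the lowest unadjusted p. It stood at 62.5, 70.3, 75.1 and 99.3 CPM in the Jrt;Sost-het mice and at 77.0, 92.5, 111 and 116 CPM in the Jrt;Sost-ko mice. All 4 Jrt;Sost-ko mice lay above the median of the Jrt;Sost-het mice, but 1 Jrt;Sost-het mouse was higher than 2 of them. The log2 fold change was 0.37 (SE 0.167), a ratio of 1.29 with a 95% interval from 0.992 to 1.68, with an unadjusted p of 0.0556 and an adjusted p of 0.901 in edgeR. P4ha2, the isoform next in level, had 25.5, 31.8, 35.5 and 42.7 CPM in the Jrt;Sost-het group and 32.3, 36.6, 45.5 and 53.9 CPM in the Jrt;Sost-ko group, a log2 fold change of 0.32 (SE 0.191), which ran from 0.174 without Jrt;Sost-ko mouse 3 to 0.442 without Jrt;Sost-het mouse 1. P4ha3 had between 5.38 and 9.15 CPM in Jrt;Sost-het mice and 2.64, 7.39, 9.12 and 10.6 CPM in Jrt;Sost-ko mice, so that a single Jrt;Sost-ko mouse was the lowest of the 8 and the other 3 lay within or above the range of the controls. That mouse, number 4, also had the lowest sum of muscle genes (35.7 CPM), and the part of muscle in its level was not tested. P4hb, the shared beta subunit, had between 436 and 518 CPM in the Jrt;Sost-het group and between 486 and 586 CPM in the Jrt;Sost-ko group, and its interval bounds the ratio between 0.962 and 1.25.

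Of the complex for 3-hydroxylation, Crtap had between 59.0 and 79.8 CPM in the Jrt;Sost-het group and between 55.9 and 81.3 CPM in the Jrt;Sost-ko group. Ppib had 178, 193, 197 and 209 CPM in the Jrt;Sost-het group and 186, 195, 196 and 202 CPM in the Jrt;Sost-ko group. The range of Ppib in the Jrt;Sost-ko mice thus lay inside that of the controls, and its ratio was 1.003 with a 95% interval from 0.915 to 1.101. P3h1, the catalytic partner, stood to Crtap in nearly the same proportion in both groups, with a difference in the log2 ratio of 0.01 (exact two-sided permutation p = 0.943, n = 4 against 4).

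Of the helix chaperones, Serpinh1 had 456, 504, 551 and 799 CPM in the Jrt;Sost-het group and 591, 596, 809 and 855 CPM in the Jrt;Sost-ko group. The 4 Jrt;Sost-ko mice were all above 3 of the 4 Jrt;Sost-het mice, and the fourth of these lay among them. The log2 fold change was 0.30 (SE 0.198, adjusted p = 0.901 in edgeR), and it ran from 0.2004 without Jrt;Sost-het mouse 3 to 0.497 without Jrt;Sost-het mouse 1. Fkbp10 had 97.6, 102, 117 and 148 CPM in the Jrt;Sost-het group and 88.9, 115, 133 and 150 CPM in the Jrt;Sost-ko group, with ranges that almost coincided and a ratio of 1.05 with a 95% interval from 0.794 to 1.39. For the channel Tmem38b, the levels were between 32.2 and 41.1 CPM in the Jrt;Sost-het group and between 28.7 and 38.7 CPM in the Jrt;Sost-ko group. It was the only one of the 9 with a log2 fold change below 0 (-0.09, SE 0.114). That value ran from -0.171 to -0.0184 with single mice left out. With limma-voom and with the muscle covariate it was just above 0 (0.00136 and 0.00703).

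**Figure D2:**
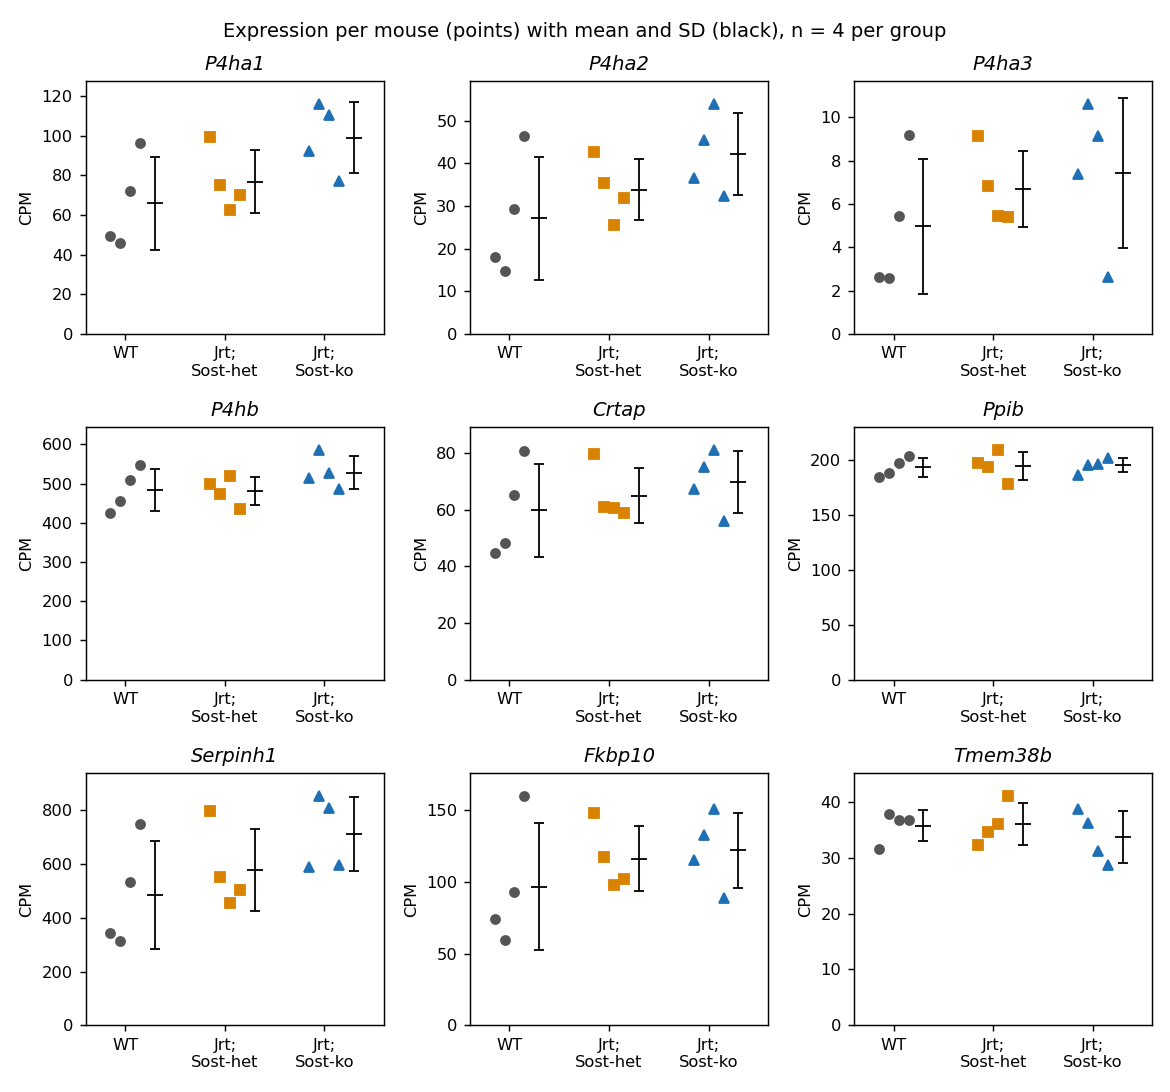
CPM of each gene in each mouse, by group, with the mean and SD of 4 mice in black (axes start at 0). The groups overlap for every gene, the WT group holds 2 low and 2 higher mice for P4ha1, P4ha2, P4ha3 and Serpinh1, and Ppib lies between 178 and 209 CPM in all 12 mice.

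Jrt;Sost-het mice differ from WT by the Jrt allele, by 1 deleted copy of Sost and by colony, and these cannot be told apart in their comparison. No gene among the 9 was called, and the adjusted p of each was 0.99998 in edgeR. None had an unadjusted p under 0.05, and DESeq2 and limma-voom also called 0 of the 9. Over all 16775 genes tested 0% were called, with 2.14% at an unadjusted p under 0.05. The groups overlapped for each of the 9, against 1.54% of all genes without overlap, and 8 of 9 had a log2 fold change above 0, against 51.3% of all genes. The WT group was wide: P4ha1 had 45.6, 49.4, 72.1 and 96.3 CPM, so that 2 WT mice lay below all 4 Jrt;Sost-het mice, 1 lay within their range of 62.5 to 99.3 CPM and the last was near its top. Serpinh1 showed the same order, with 315, 345, 535 and 750 CPM in WT mice. The log2 fold changes of P4ha1 and Serpinh1 were 0.22 (SE 0.253) and 0.25 (SE 0.301), each lowest without Jrt;Sost-het mouse 1 (0.0795 and 0.0575) and highest without WT mouse 4 (0.465 and 0.539), and those of P4hb, Ppib and Tmem38b were -0.00, 0.01 and 0.02.

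The upper mice of WT, numbered 3 and 4, were also the only ones of the 12 with more than 6.66 CPM of epidermal genes, and they were left out together in a further fit. The part of tissue around the bone in their levels was not tested. Without them the log2 fold change of Jrt;Sost-het against WT was 0.71 for P4ha1, 1.07 for P4ha2, 1.37 for P4ha3, 0.82 for Serpinh1, 0.82 for Fkbp10 and 0.50 for Crtap, with adjusted p between 0.114 and 0.146 in edgeR, and no gene of the 9 was called. Ppib (0.08) and Tmem38b (0.07) stayed near 0. The mice left out were the highest of WT for P4ha1, P4ha2, P4ha3, Serpinh1, Fkbp10 and Crtap. Larger differences of these genes therefore follow from the choice, and their p-values are no separate test. The size of these differences thus rests on which WT mice are counted, and with 2 WT mice left the spread of the group is poorly known.

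Jrt;Sost-ko mice differ from WT at the same loci and by colony, with both copies of Sost deleted. Here too none of the 9 was called (adjusted p of 0.9996 in edgeR, and 0 calls also with DESeq2 and limma-voom), against 0.00583% of 17155 genes, which is again Sost alone. P4ha1 was the single gene of the 9 with an unadjusted p under 0.05 (0.0431), as were 3.89% of all genes, with a log2 fold change of 0.59 (SE 0.249) and a ratio of 1.51 with a 95% interval from 1.02 to 2.24. The values of P4ha2, Serpinh1 and P4ha3 were 0.64 (SE 0.354), 0.56 (SE 0.287) and 0.59 (SE 0.522). Fkbp10 (0.34), Crtap (0.23), P4hb (0.13), Ppib (0.02) and Tmem38b (-0.08) followed. With single mice left out, Fkbp10 ran from 0.163 without WT mouse 2 to 0.695 without WT mouse 4, and Crtap from 0.1099 without WT mouse 1 to 0.406 without WT mouse 4. P4ha3 ran from 0.365 to 1.07, P4hb from 0.0706 to 0.196 and Tmem38b from -0.154 to -0.0119. P4ha1, P4ha2 and Serpinh1 were lowest without WT mouse 2 (0.454, 0.435 and 0.396) and highest without WT mouse 4 (0.836, 1.03 and 0.847). Without WT mice 3 and 4 these values too were larger, at 1.07 for P4ha1, 1.37 for P4ha2, 1.12 for Serpinh1, 1.51 for P4ha3, 0.87 for Fkbp10, 0.59 for Crtap and 0.27 for P4hb, with no adjusted p below 0.294 in edgeR, and Ppib (0.07) and Tmem38b (-0.04) stayed near 0. No gene separated the groups without overlap, where 2.4% of all genes did, and 8 of 9 were above 0 against 49.1% of all genes. The 3 comparisons share groups of mice, and their values are given side by side only. In exact permutation tests of the single genes, 27 in all, no adjusted p was below 0.661.

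**Figure D3:**
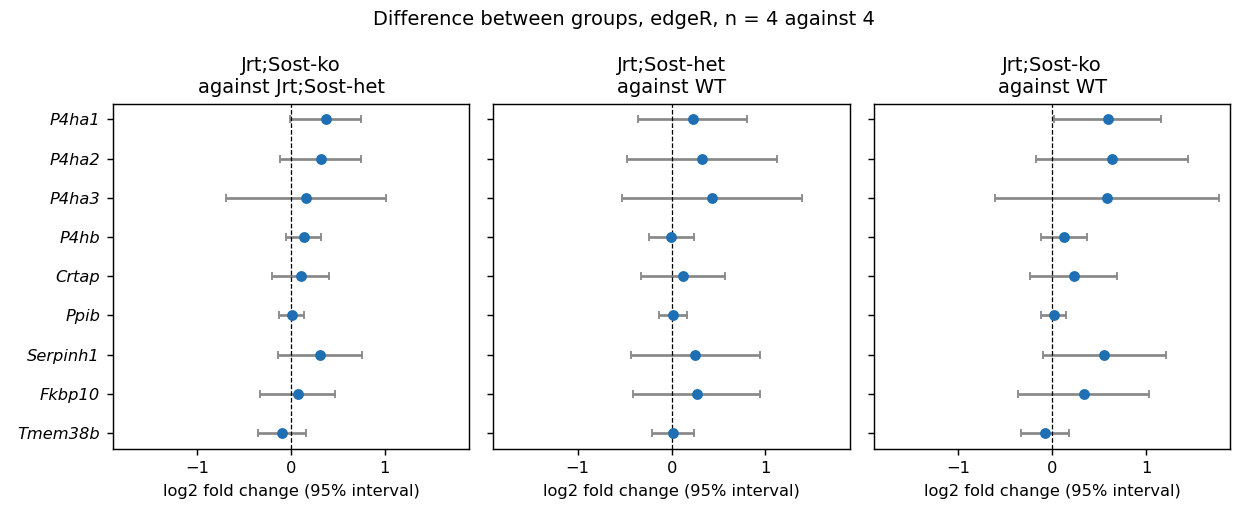
Log2 fold change of each gene in the 3 comparisons, as points with 95% intervals from edgeR, 4 mice against 4 in each panel. Every interval includes 0 except that of P4ha1 in Jrt;Sost-ko against WT, and the intervals of Ppib, P4hb and Tmem38b are the narrowest.

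The other genes of collagen folding gave the same kind of result. A list of 46 genes covers the 3-hydroxylases, other prolyl isomerases, disulfide isomerases and oxidases, and general chaperones and retrieval receptors of the endoplasmic reticulum. It also covers collagen substrates and further genes of OI and its control, a group that holds P4htm and Tmem38a too, not counted here as OI genes. None of the 46 was called by edgeR in any comparison. An unadjusted p under 0.05 was found for 0 of them between the Jrt groups, where 5.02% of all genes had one, for 0 in Jrt;Sost-het against WT (2.14% of all genes) and for 2 in Jrt;Sost-ko against WT (3.89%), which is near the share over all genes. Their log2 fold change was above 0 in 41 of 46 when Jrt;Sost-ko was set against Jrt;Sost-het (median 0.12, with 50.4% of all genes above 0), in 34 for Jrt;Sost-het against WT (median 0.09, 51.3% of all genes) and in 39 for Jrt;Sost-ko against WT (median 0.17, 49.1% of all genes). The smallest unadjusted p in the first comparison belonged to Col1a2, the alpha 2 chain of collagen type I (0.41, SE 0.194), Dnajb11, a cochaperone (0.12, SE 0.0565), and Pdia3, a disulfide isomerase of glycoproteins (0.15, SE 0.0746). In Jrt;Sost-het against WT they belonged to Pdia4 (0.15), Hsp90b1 (0.10) and Kdelr1 (0.09). In Jrt;Sost-ko against WT, Pdia4, a disulfide isomerase (0.28, SE 0.108, unadjusted p = 0.0296 in edgeR), and Hsp90b1, the chaperone GRP94 (0.23, SE 0.0882, unadjusted p = 0.0306 in edgeR), were higher in every Jrt;Sost-ko mouse than in any WT mouse, and Hspa5, the chaperone BiP, had 0.23 (SE 0.108). Their adjusted p was 0.9996, and 2.4% of all genes did not overlap in that comparison.

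Mice of the same group differed from each other, and most of the 9 genes varied together with their substrate. Collagen type I was taken as the mean log2 CPM of Col1a1 and Col1a2, which ran from 13.4 in WT mouse 2 to 15.0 in Jrt;Sost-ko mouse 3. Over the 12 mice, P4ha1 followed it with Pearson's r = 0.983 and Spearman's rho = 0.979, P4ha2 with r = 0.977 and rho = 0.986, and Serpinh1 with r = 0.965 and rho = 0.965, each with an adjusted permutation p of 4.5e-05 for r and 3e-05 for rho over 9 relations, which rest on the smallest p or next to the smallest that 100000 permutations can give. Fkbp10 had r = 0.942 and rho = 0.895 (adjusted permutation p = 4.5e-05 and 0.000324), Crtap r = 0.902 and rho = 0.909 (0.000252 and 0.000315), and P4ha3 r = 0.860 and rho = 0.881 (0.00027 and 0.00048). These 6 genes rose with collagen also within each group of 4 mice, with r of at least 0.847. With the 2 most distant mice by the collagen measure left out (WT mouse 2 and Jrt;Sost-ko mouse 3), r was 0.979 for P4ha1, 0.952 for P4ha2, 0.951 for Serpinh1, 0.892 for Fkbp10, 0.871 for Crtap and 0.816 for P4ha3.

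The remaining 3 genes stood apart from this pattern. P4hb had r = 0.724 and rho = 0.741 (adjusted permutation p = 0.00942 and 0.0108, and r = 0.740 without these 2 mice), but it changed little, by 0.20 log2 units per unit of collagen against 0.86 for P4ha1, 0.92 for Serpinh1 and 1.11 for P4ha2, and within the groups of 4 its r came to 0.848 (WT), 0.108 (Jrt;Sost-het) and 0.730 (Jrt;Sost-ko). Ppib had r = 0.294 and rho = 0.259 (adjusted permutation p = 0.398 and 0.457, r = 0.198 without the 2 mice) and a slope of 0.04. Among the WT mice alone Ppib rose with collagen (r = 0.899), and within the Jrt groups r was -0.0252 (Jrt;Sost-het) and -0.286 (Jrt;Sost-ko). Tmem38b had r = -0.192 and rho = -0.238 (0.547 and 0.457, r = 0.130 without the 2 mice), and within the groups it came to 0.121 (WT), -0.761 (Jrt;Sost-het) and 0.329 (Jrt;Sost-ko). A coefficient of variation of 4.46% over the 12 mice put Ppib among the steadiest genes of the tibia, since its SD of log2 CPM was at percentile 3.13 of 17245 genes tested, against 31.6 for P4hb, 37.0 for Tmem38b, 79.9 for P4ha1 and 93.8 for P4ha3.

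**Figure D4:**
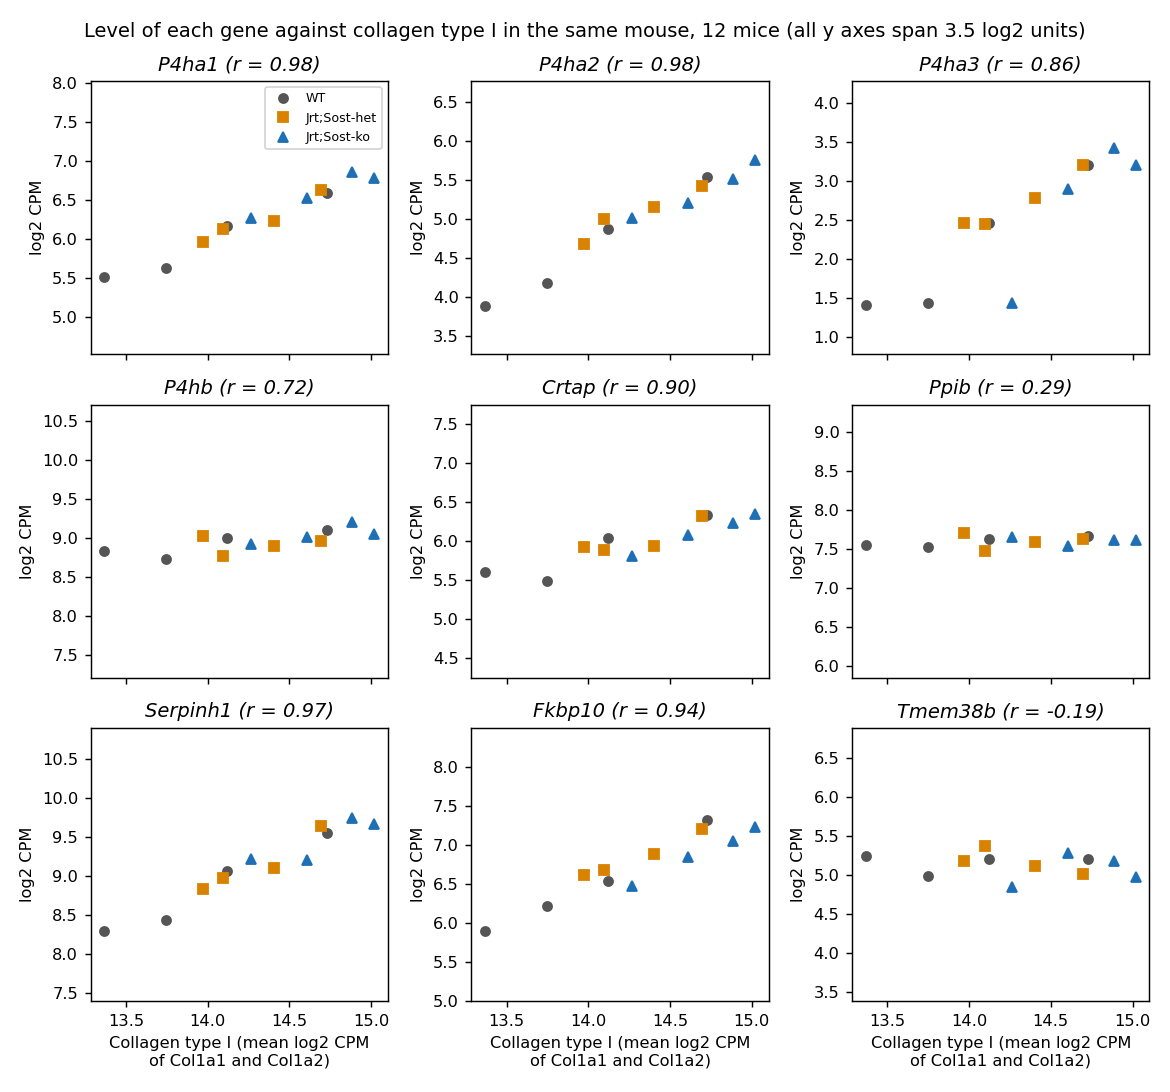
Log2 CPM of each gene against collagen type I (mean log2 CPM of Col1a1 and Col1a2) in the same mouse, with 12 mice by group and y axes of equal span. P4ha1, P4ha2 and Serpinh1 rise along a narrow band, Ppib and Tmem38b are flat, and in the panel of Fkbp10 the Jrt;Sost-ko mice lie below the line of the other groups.

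Signals of other cells moved with the same mice. The mean log2 CPM of the osteoblast markers without Col1a1 and Col1a2 had r = 0.977 with collagen, that of tendon and fibroblast markers r = 0.818, that of neutrophil genes r = -0.778 and that of skeletal muscle genes r = 0.315, although within the Jrt;Sost-het group muscle genes had r = -0.813. For Serpinh1 the same values were 0.954, 0.782, -0.758 and 0.224, and for P4ha3 0.933, 0.898, -0.697 and 0.614. Ppib had 0.356, 0.1004, -0.150 and -0.105. The part of the cell mix in the relation to collagen was not tested. Against all 17245 genes tested, of which 1.48% had an r above 0.9 with collagen, 5 of the 9 genes did.

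The lists of the wider pathway differed in how far their genes followed collagen. Of 6 other prolyl isomerases 5 had an r above 0.9 (Fkbp7 0.967, Fkbp11 0.955, Ppic 0.954, Fkbp9 0.927 and Fkbp14 0.919), while Fkbp2 had -0.552. Among the 3-hydroxylase family P3h1 had 0.937, P3h4, a partner in lysine hydroxylation, 0.923, P3h3 0.842 and P3h2 0.627. Creb3l1, a membrane-bound transcription factor whose loss causes OI, had 0.981, and Sparc, a collagen-binding matrix protein, 0.990. The other genes of that list had 0.972 (Sec24d), 0.938 (Kdelr2), 0.528 (Mbtps2), 0.425 (P4htm) and 0.305 (Tmem38a). By contrast 15 general chaperones and retrieval receptors had a median r of 0.168, with only the receptors Kdelr1, Kdelr2 and Kdelr3 above 0.9, and 9 disulfide isomerases and oxidases had a median of 0.219 and 0 above 0.9. The highest of these were Qsox1 (0.873), Txndc5 (0.862) and Pdia5 (0.805), of which the first and second were at the level of P4ha3. Hspa5 had 0.247, Calr 0.0221 and Canx -0.201. These correlations across mice of listed genes are a description, all points sharing the same 12 libraries.

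The genes most like each of the 9 over the 12 mice, by Pearson's r of log2 CPM among the 17244 other genes tested,, are named here without regard to function. P4ha1 was nearest to Cgref1 (0.989), Creb3l1 (0.987) and Serpinh1 (0.984), and Serpinh1 to Cgref1 (0.993), Fkbp11 (0.989) and P4ha1 (0.984). For P4ha2 they were Pcolce (0.988), Kazald1 (0.986) and Gpr153 (0.986), and for Fkbp10 Ppic (0.994), Efemp2 (0.987) and Tcaf1 (0.986). P4ha3 was nearest to Col3a1 (0.977), Thbs2 (0.975) and Itga11 (0.975), and Crtap to Pofut2 (0.985), Mfap2 (0.976) and Gna11 (0.975). P4hb was nearest to Surf4 (0.955), Lmx1b (0.949) and Peg12 (0.940). The nearest genes were less close for Ppib (Tmed3 0.878, Ssr2 0.856 and Igkv8-19 0.845) and Tmem38b (Clstn2 0.874, Gng4 0.855 and Cd209d 0.851).

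Ratios within a library do not depend on its scaling, and the ratio to collagen sets the CPM of each gene, not corrected for length, against that of collagen type I in the same mouse. Serpinh1 stood at between 1.17% and 1.502% of the summed CPM of Col1a1 and Col1a2 in all 12 mice and P4ha1 at between 0.166% and 0.213%, so that the highest mouse had 1.28 and 1.29 times the lowest, although Serpinh1 itself varied 2.72-fold. The ratios of Tmem38b, Ppib and P4hb, which did not follow collagen or did so weakly, spanned 3.78, 2.99 and 2.69 times. Among the genes that followed collagen, P4ha3 spanned 2.63 times, about as wide as P4hb, Crtap 1.86, P4ha2 1.39 and Fkbp10 1.38. Neither Serpinh1 nor P4ha1 differed between groups in this ratio, with differences of at most 0.09 log2 units and exact permutation p of at least 0.371 over the 3 comparisons.

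Fkbp10 was the only one of the 9 genes whose ratio to collagen separated the Jrt;Sost-ko mice from both other groups. It was 0.229%, 0.218%, 0.225% and 0.223% of collagen in Jrt;Sost-ko mice 1 to 4, against 0.278%, 0.269%, 0.300% and 0.289% in Jrt;Sost-het and 0.267%, 0.277%, 0.258% and 0.293% in WT mice. Each Jrt;Sost-ko mouse was below all 8 others, and the 4 values of that group lay closer together than those of the other groups. Over all genes, the ratio to collagen did not overlap for 4.8% between the Jrt groups and for 11.4% in Jrt;Sost-ko against WT. The share of all genes that separated in both comparisons at once was not computed. Ppic, the gene most like Fkbp10 over the 12 mice, had a log2 fold change of 0.09 between the Jrt groups, against 0.07 for Fkbp10. Its ratio to collagen was not examined. The log2 ratio of Fkbp10 was lower by 0.34 than in Jrt;Sost-het mice (a ratio of 0.789) and by 0.29 than in WT mice (0.818). Both have p = 0.0286 in the exact two-sided permutation test, the smallest that 4 mice against 4 allow, and neither passed after adjustment over 39 tests (adjusted p = 0.371). Jrt;Sost-het and WT mice differed by 0.05 (exact permutation p = 0.371, n = 4 against 4). Within each group Fkbp10 followed collagen closely, with r of 0.994 in the WT, 0.988 in the Jrt;Sost-het and 0.996 in the Jrt;Sost-ko group. The level of Fkbp10 itself did not separate the groups, as given above. Fkbp10 lies 1.54 Mb before Sost, so that loss of Sost and a linked strain allele of Fkbp10 cannot be told apart here.

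Crtap behaved likewise against WT. Its ratio to collagen was between 0.122% and 0.140% in Jrt;Sost-ko and between 0.148% and 0.226% in WT mice, without overlap, and between 0.139% and 0.186% in Jrt;Sost-het mice, which overlapped both. The log2 ratio was lower by 0.45 in Jrt;Sost-ko than in WT mice (exact permutation p = 0.0286 with n = 4 against 4, adjusted 0.371). These separations are read against the share of all genes whose ratio to collagen did not overlap, which was 4.8% between the Jrt groups, 0.519% for Jrt;Sost-het against WT and 11.4% for Jrt;Sost-ko against WT. Of the 9 genes 1, 0 and 2 did so. Col1a1 and Col1a2 had log2 fold changes of 0.39 and 0.41 in the Jrt;Sost-ko group against its Jrt controls, neither called (adjusted p = 0.901 in edgeR). Against WT they had 0.68 and 0.62, neither called (adjusted p = 0.9996 in edgeR). In the same 2 comparisons Fkbp10 had 0.07 and 0.34, and Crtap 0.10 and 0.23. The part of the collagen level in these ratios was not tested.

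**Figure D5:**
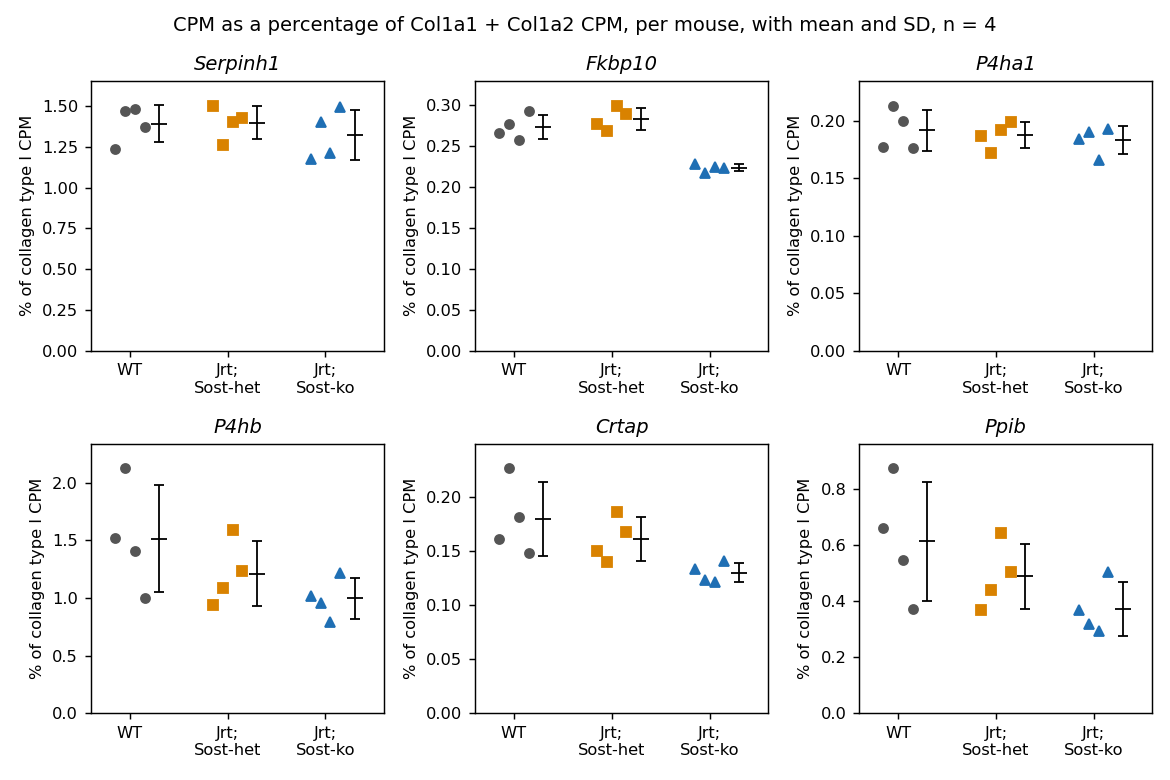
CPM of 6 genes as a percentage of the summed CPM of Col1a1 and Col1a2, in each mouse by group, with mean and SD of 4 mice (axes start at 0). Fkbp10 lies between 0.218% and 0.229% in the Jrt;Sost-ko mice and at 0.258% or more in the other 8, while Serpinh1 and P4ha1 overlap between all groups.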

How the data were processed

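RNA was sequenced as read pairs from poly(A)-selected libraries. The authors aligned the reads to GRCm38 with STAR and deposited raw counts per Ensembl gene for 12 mice. The counting tool, its strand setting and the annotation release are not given in the sources used here. The submitters' processing notes also name bcl2fastq 2.20, Cufflinks, Cuffdiff and DESeq. Deposited tables of the authors' own comparisons hold fold changes and p-values and were not used.

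For every comparison, the 8 mice concerned were fitted alone, using edgeR 4.0.16 under R 4.3.3 (filterByExpr, TMM, glmQLFit and glmQLFTest), with Benjamini-Hochberg adjustment over all genes tested and a threshold of 0.05. CPM used TMM factors over the 12 libraries (0.978 to 1.02), and log2 CPM a prior count of 2. Exon lengths are the union of all transcripts in GENCODE M21. Single genes and ratios were compared by exact two-sided permutation of the 70 arrangements, for which the smallest p is 0.0286. Scripts were tested on simulated data. Mice are numbered in accession order. The 9 genes, the lists of 46 pathway genes and 12 sets of cell markers and the tests were chosen with earlier results of these data known. Named genes are the 9, the 3 pathway genes with the smallest unadjusted p per comparison and the 3 genes most like each of the 9. Pathway genes named for their correlation with collagen, and Hspa5, Calr and Canx, were chosen after their values were seen. The labels do not say whether the mice came from separate litters, and p-values measure the spread between these mice. Alternatives were DESeq2 1.42.0, limma-voom with sample weights (limma 3.58.1), DESeq2's size factors, upper-quartile scaling, other filters, all 12 mice in 1 fit, scaling without muscle, erythroid and neutrophil genes, a muscle covariate, leaving out each mouse, and leaving out WT mice 3 and 4.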

Additional observations from a re-analysis of the deposited data

Results flagged for a closer look

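In the Jrt;Sost-het group, the log2 CPM of Crtap was farther from the others in mouse 1 than the spread of the group would lead to, with a gap to the next mouse of 0.897 of the whole range, above the 95% critical value of Dixon's test for 4 samples. Crtap had 79.8 CPM in that mouse and between 59.0 and 60.9 CPM in the other 3. That mouse also had the highest collagen of its group and the highest sum of chondrocyte genes of all 12 mice (3205 CPM), and their part in the value was not tested. Of 66 groups of 4 mice examined in this way 1 stood out, where chance gives about 3.3.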

How the results depend on the processing

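Of the 9 genes 0 were called in each comparison under all alternatives run. The number of all genes called did move. With DESeq2 it was 7 between the Jrt groups, 4 for Jrt;Sost-het against WT and 18 for Jrt;Sost-ko against WT, where the values reported were 1, 0 and 1. With limma-voom it was 0 between the Jrt groups and 2 for Jrt;Sost-ko against WT, with the muscle covariate 0 between the Jrt groups, and without a filter 2 for Jrt;Sost-ko against WT. Leaving out each mouse in turn gave 0 to 3 genes between the Jrt groups, 0 for Jrt;Sost-het against WT and 0 to 2 for Jrt;Sost-ko against WT. The causes of these moves were not tested.

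Log2 fold changes near 0 changed sign. Between the Jrt groups, Ppib had -0.00401 with upper-quartile scaling, -0.0120 with limma-voom, -0.00364 with at least 10 counts in every mouse and -0.0216 with the muscle covariate, and Tmem38b had 0.00136 with limma-voom and 0.00703 with the muscle covariate. For Jrt;Sost-het against WT, P4hb had 0.0258 with limma-voom, 0.00133 with muscle, erythroid and neutrophil genes left out of the scaling and 0.147 without WT mice 3 and 4, and Tmem38b had -0.00556 with the muscle covariate. For Jrt;Sost-ko against WT, Tmem38b had 0.00251 with limma-voom, and the log2 ratio of P4ha3 to collagen was 0.201 without WT mice 3 and 4. Leaving out each mouse turned the sign between the Jrt groups for P4ha3 (-0.0656 to 0.430), Ppib (-0.0285 to 0.0351) and Fkbp10 (-0.0480 to 0.2003), for Jrt;Sost-het against WT for P4hb (-0.0611 to 0.0569), Ppib (-0.0189 to 0.0480) and Tmem38b (-0.0603 to 0.0672), and for Jrt;Sost-ko against WT for Ppib (-0.00542 to 0.0438). Among log2 ratios it did so between the Jrt groups for P4ha1 to collagen (-0.0742 to 0.0147) and P3h1 to Crtap (-0.0796 to 0.0723), for Jrt;Sost-het against WT for P4ha1 (-0.0680 to 0.0227) and Serpinh1 to collagen (-0.0465 to 0.0566), and for Jrt;Sost-ko against WT for P4ha2 (-0.0133 to 0.121) and P4ha3 to collagen (-0.2495 to 0.215). The lower ratio of Fkbp10 to collagen in Jrt;Sost-ko mice kept its sign with each mouse left out, at -0.37 to -0.32 against Jrt;Sost-het and -0.32 to -0.26 against WT, with an exact permutation p of 0.0571 each time, the smallest that 4 mice against 3 allow.

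No paired analysis was possible because the replicate numbers follow accession order only and pair no mice. With 4 mice a group, the intervals given hold the differences that are compatible with the data, and the intervals of P4ha3 are the widest. The lack of a call does not show that a gene was unchanged.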
